A study of Mus musculus with 12 samples.

Results

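The clustered histone genes of the mouse, which carry symbols of the form Hist1h2bc, were followed across cultured and in vivo male germ cells. Members were all genes whose symbol begins with Hist, a cluster number from 1 to 4, the letter h and a histone class number. The P7 tables use these symbols and the other tables mostly use newer ones, so genes were matched by Entrez ID, which gave 68 members of 38863 genes in either gene list, 67 of them in both. By class they were 6 H1, 18 H2A, 19 H2B, 12 H3 and 13 H4 genes. On the chromosomes, 54 lay on chromosome 13, 10 on chromosome 3, 3 on chromosome 11 and 1 on chromosome 6.

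The study profiled germ cells with SC3-seq, a method that amplifies cDNA and sequences the 3′ ends of polyadenylated RNA, to characterise the cohesin subunit STAG3. There were 12 libraries in 6 groups of 2. Germline stem cells (GSCs), a culture of male germ cells with stem cell activity, came from the line named Acrosin-EGFP; beta-Actin-EGFP (AAG), so all GSC groups share those transgenes. They were wild type (WT GSC) or Stag3 knockout, with 2 numbered knockouts (KO1 and KO2), and the labels give neither the design of the knockouts nor whether each is 1 clone. In vivo germ cells came from testes of Vasa-RFPTg/0 mice, which carry a red fluorescent reporter named for the germ cell gene Vasa, at embryonic days 16 (E16) and 17 (E17) and postnatal day 7 (P7). How these cells were isolated, and whether animals were pooled, is not stated in the labels. The labels do not say that replicates are separate cultures or mice. Tests here therefore weigh differences against library-to-library spread, which may be technical.

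Clustered histone genes supply the bulk of the histones that package newly copied DNA and are transcribed mainly in S phase. Their mRNAs are unusual in ending, as a rule, in a short stem-loop that is bound by SLBP, instead of a poly(A) tail. A method primed on poly(A) therefore sees mainly the minority of histone transcripts that carry a tail. Male germ cells of the late fetal testis are known to pause in mitotic arrest, while spermatogonia and GSCs divide. The testis types Hist1h1t, Hist1h2aa and Hist1h2ba are linker and core histone variants best known from spermatocytes and spermatogonia.

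Most members held the stem-loop in their annotated transcript. In GENCODE vM21 transcripts (GRCm38), the letters GGNNNTTTNNANNNCC with 6 paired bases on each side were searched on the transcript strand. They occurred in 44 of the 67 members with a protein-coding transcript, which is 65.7%, against 62 of 21810 other genes, or 0.284%. The examples below show the stem-loop in capitals with 5 bases on either side, in leading members of their class and in the testis type Hist1h1t.
Hist1h3a: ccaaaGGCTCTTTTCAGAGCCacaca
Hist1h2bj: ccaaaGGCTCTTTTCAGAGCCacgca
Hist1h1c: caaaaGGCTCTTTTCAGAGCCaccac
Hist1h3c: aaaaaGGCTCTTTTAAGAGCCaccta
Hist1h1t: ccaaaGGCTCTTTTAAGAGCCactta
Hist1h4d: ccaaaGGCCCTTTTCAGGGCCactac
Hist1h4i: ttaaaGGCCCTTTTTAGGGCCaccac
The form of Hist1h3a occurred in 26 members of classes H1, H2A, H2B and H3, that of Hist1h3c in 6, and that of Hist1h4d in 7, all of class H4. The other 23 members had no complete match in their annotated transcript, Hist1h2bc and Hist2h2be among them. Some annotated transcripts of the 23, such as those of Hist1h2ai, Hist1h2ak, Hist1h3h and Hist1h4k, end with a stop codon. Sequence beyond it was not searched, so a missing match does not show that a gene lacks the stem-loop. Hist1h1a is 1 of the 23 because its annotated transcript stops short of the last letter, as its final 30 bases show.
Hist1h1a: tataaataacccaacggctcttttcagagc

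Some annotated transcripts ended near a polyadenylation signal, the letters that direct addition of a tail. The letters AATAAA or ATTAAA stood within the last 50 bases of 17 members. Not all of these ran past a stem-loop, since Hist2h2be, Hist1h4a, Hist1h2bq and Hist1h2br had none. Below, the last 30 bases of 3 of them are shown with the signal in capitals, because each had counts at P7 and Hist2h2be also in every fetal library.
Hist2h2be: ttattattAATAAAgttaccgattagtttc
Hist1h1c: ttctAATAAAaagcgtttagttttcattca
Hist1h4i: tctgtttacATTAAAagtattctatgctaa
In Hist1h1c the transcript ended 840 bases past the stem-loop and in Hist1h4i 330 bases past it, against 37 bases in Hist1h3a and 74 in Hist1h3c.

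Promoter windows from RefSeq (GRCm38.p6), 250 bases before to 50 after the start, were matched for 62 members. Motifs were searched on both strands. The CCAAT letters stood in 85.5% of member windows and 37.9% of all 27025 windows, with all H1, H2A, H2B and H3 windows holding them and 25% of H4 windows. TATAAA stood in 56.5% of member windows and 14.2% of all. The octamer ATTTGCAT was found in 13 member windows, 7 of class H2A and 6 of class H2B, or 20.97% against 1.75% of all windows. AAACACA was found in 5 of 6 H1 windows and in 7.14% of all. These matches describe the letters only. The window of Hist1h2ac, on the minus strand at chr13:23683910-23684209, is shown because it reaches across the gap to the start of Hist1h2bc at position 23684199, so that a gene with 1 count lies beside the most counted member. Capitals mark CCAAT or its complement, the octamer and TATAAA.
Hist1h2ac: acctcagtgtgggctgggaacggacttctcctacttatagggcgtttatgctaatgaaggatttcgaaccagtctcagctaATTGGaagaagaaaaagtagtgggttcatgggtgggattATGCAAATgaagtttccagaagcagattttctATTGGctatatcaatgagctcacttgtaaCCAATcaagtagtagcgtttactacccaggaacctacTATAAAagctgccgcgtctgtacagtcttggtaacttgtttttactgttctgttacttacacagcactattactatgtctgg
Hist1h2ac had 1 count over the 12 libraries and Hist1h2bc had 293. The window of Hist1h1a, on the plus strand at chr13:23763418-23763717, is shown because this linker histone gene was called lower in KO2 than in WT GSC and is the H1 window without AAACACA. Capitals mark CCAAT and TATAAA.
Hist1h1a: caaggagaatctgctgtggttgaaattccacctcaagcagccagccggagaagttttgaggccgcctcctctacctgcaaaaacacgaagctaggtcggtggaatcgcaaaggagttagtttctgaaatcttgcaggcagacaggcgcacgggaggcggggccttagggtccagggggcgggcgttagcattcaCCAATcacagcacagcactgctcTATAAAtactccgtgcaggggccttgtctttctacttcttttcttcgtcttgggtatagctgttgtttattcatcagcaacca

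Libraries held 1938644 to 4596607 counts. Stag3 was at 385 and 420 reads per 1000000 non-mitochondrial gene reads (RPM) in WT GSC, at 295 and 304 RPM in KO1 and at 137 and 152 RPM in KO2. Its transcript was thus lower in both knockouts but present, and 3′ counts cannot check a lesion that lies elsewhere in the gene. Germ cell markers were detected in every library, with 9 or 10 of 10 genes counted and sums of 2322 to 4004 RPM. Markers of testis somatic cells and blood were higher in the fetal libraries. The Sertoli cell sum was 156 to 197 RPM there and 33.8 to 65.0 RPM in GSC, the peritubular myoid sum 81.5 to 123 RPM and 1.94 to 10.9 RPM, and the erythroid sum 91.3 to 273 RPM and 0 to 0.272 RPM. In these fetal libraries 10 or 11 of 12 Sertoli genes, 5 of 5 myoid genes and 5 or 6 of 6 erythroid genes were counted, while Amh of Sertoli cells was at 0 in all 12 libraries and Insl3 of Leydig cells in all 10 GSC and fetal libraries. At P7 the Sertoli sum was 72.02 and 113 RPM and the erythroid sum 12.5 and 82.5 RPM. The share of counts on ERCC spike-in RNA was 2.80 to 3.41% in GSC, 1.22 and 1.52% at E16, 0.194 and 0.231% at E17 and 5.85 and 4.69% at P7. The amount of spike-in added is not stated. P7 was tabulated with another gene list, so its stage and its annotation cannot be told apart.

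Clustered histone genes were counted rarely. Over the 12 libraries 55 of the 68 members had at least 1 count, 27 had 10 or more, and 13 were at 0, among them Hist2h2aa1, Hist2h3c1 and Hist1h4h. All members together had 1372 counts, of which 21.4% fell on Hist1h2bc and 69.4% on the 10 most counted genes. One count was worth 0.249 to 0.578 RPM, and a count of 0 allows up to 3 counts, or 0.748 to 1.73 RPM, depending on the library. Intervals and floors given here cover counting error only. Many members have near-identical coding sequences, and 5 overlap another annotated gene, so counts of single members are uncertain where reads could be shared. Whether counting used strand is not stated in the sources at hand.

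The summed level separated the groups. It was 42.5 and 40.6 RPM in WT GSC, 71.5 and 69.8 RPM in KO1, and 49.7 and 46.3 RPM in KO2. In vivo it was 11.4 and 13.4 RPM at E16, 6.36 and 5.23 RPM at E17, and 24.99 and 31.2 RPM at P7. Libraries of 1 group lay closer to each other than to any other group. The order from E17 up through E16, P7, WT GSC and KO2 to KO1 held for shares of gene reads only. Relative to the spike-in total, E17 stood at 2.03 times WT GSC in place of 0.139 times, E16 at 0.667 in place of 0.299 times, and P7 at 0.428 in place of 0.676 times. In bulk samples, fewer cells of a type and less RNA per cell cannot be told apart.

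**Figure D1:**
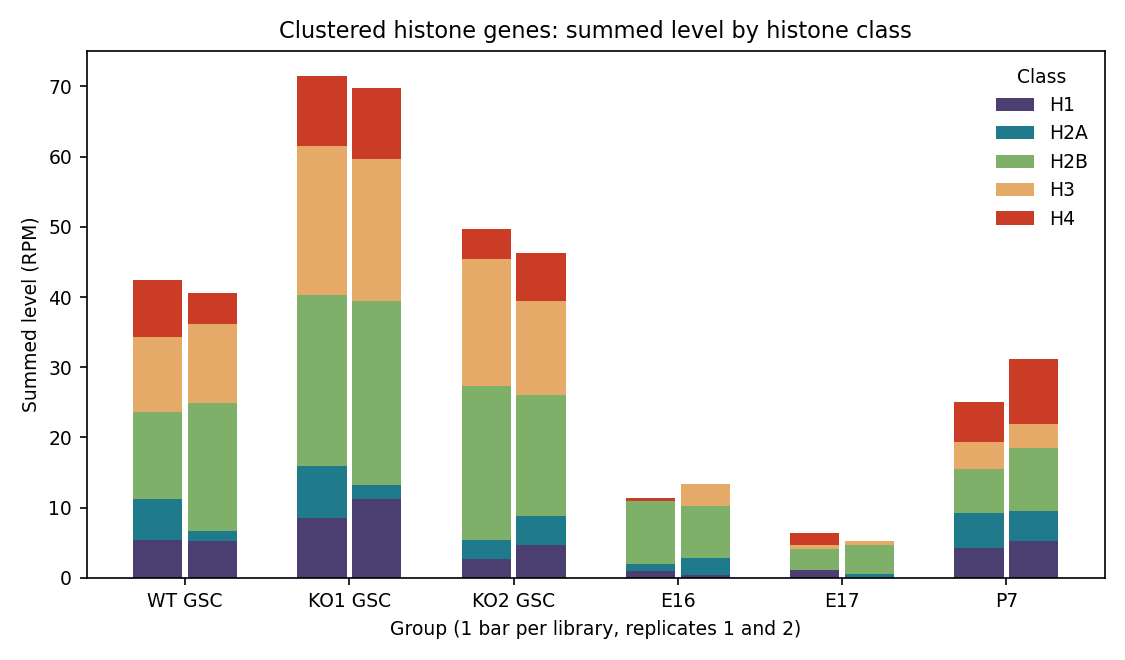
Summed level of the 68 clustered histone genes in RPM for each of the 12 libraries, stacked by histone class. KO1 libraries reached 71.5 and 69.8 RPM and E17 libraries 6.36 and 5.23 RPM; on a spike-in scale the E17 libraries would lie above WT GSC.

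The classes made unequal parts of these sums. H2B had the highest mean in every group and stood at 15.4 ± 4.01 RPM in WT GSC (SD, n = 2). At P7 it was not separable from H4, at 7.61 ± 1.92 and 7.43 ± 2.604 RPM. H3 followed in WT GSC at 10.9 ± 0.421 RPM, then H4 at 6.33 ± 2.604, the linker histones of class H1 at 5.34 ± 0.150 and H2A at 3.61 ± 2.99 RPM. The SDs of H4, H1 and H2A left the order of these last 3 classes unresolved. H2A counts were uneven between replicates in WT GSC, at 21 and 6, and in KO1, at 25 and 6.

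One or a few genes led each class. Hist1h2bc, a core H2B gene, led H2B, Hist1h3c and Hist1h3a led H3, Hist1h4d, Hist1h4i and Hist1h4k led H4, and Hist1h1a, Hist1h1e and Hist1h1c led H1. No H2A gene passed 31 counts over all libraries, the number of Hist1h2ak.

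**Figure D2:**
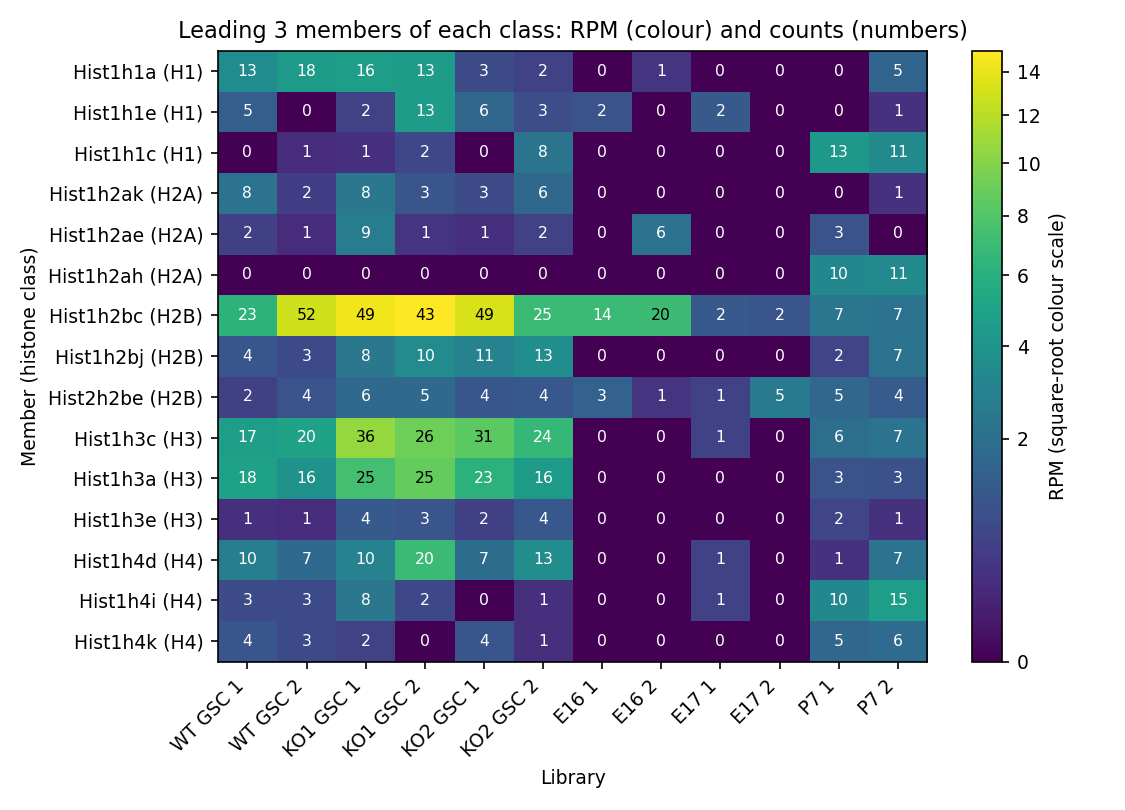
RPM (colour, square-root scale) and counts (numbers) of the 3 leading members of each class in the 12 libraries. Hist1h2bc was counted in every library, Hist1h2ah only at P7, and Hist1h3a in no fetal library.

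The testis types were near or at 0 throughout. Hist1h1t, the testis linker histone, had 4 and 1 counts in the KO1 libraries, 0 and 1 in KO2, and none in WT GSC, E16, E17 or P7. Hist1h2aa had 1 count in WT GSC replicate 1 and 2 in KO1 replicate 2. Hist1h2ba had 1 count in each of these same 2 libraries. None of the 3 exceeded the floor in more than 1 library, so no difference was detectable at this depth, and Hist1h2aa and Hist1h2ba overlap the gene Gm33516. A list of 12 spermatocyte and spermatid markers summed to 5.94 to 26.1 RPM in GSC, 131 to 204 RPM in fetal libraries and 33.1 to 44.1 RPM at P7. In the fetal libraries these markers were thus at their highest while the 3 testis histones had no count.

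The effect of Stag3 loss was asked in GSCs, where 6 of the 68 members passed the filter on low counts. In KO1 the summed level was 1.70 times that of WT GSC, from 443 against 319 counts (95% exact binomial interval 1.47 to 1.97), and 1.53 times with the spike-in total as denominator. In KO2 it was 1.16 times (0.992 to 1.35), from 351 counts. The KO1 sum was 1.47 times the KO2 sum (1.28 to 1.70). Both KO1 libraries lay above all 4 other GSC libraries. Marker lists also moved in both knockouts. The Sertoli list, with 8 of 12 genes counted, was at 65.0 and 62.8 RPM in KO1, 33.8 and 37.1 RPM in WT GSC and 43.2 and 48.0 RPM in KO2, with Amh, Cst9 and Fshr at 0 in all GSC libraries. In KO1, 3 of 5 tested Sertoli genes were higher, while 3 of 8 tested fibroblast and feeder genes, 3 of 10 germ cell genes and 2 of 2 spermatocyte and spermatid genes were lower. In KO2, 2 of the 5 Sertoli genes were higher and 1 lower. There 4 of 8 fibroblast and feeder, 7 of 10 germ cell and 1 of 2 spermatocyte and spermatid genes were lower. Over all genes tested, 6.24% were called higher and 7.4% lower in KO1, and 7.19% and 8.45% in KO2. The fibroblast and feeder sum was 237 and 238 RPM in KO1 and 256 and 261 RPM in WT GSC. The part of these lists in the result was not tested.

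Every class was higher in the KO1 mean than in the WT GSC mean, by counts pooled over replicates. H3 stood at 1.90 times WT GSC in KO1 (1.43 to 2.53) and 1.44 times in KO2 (1.08 to 1.93). H2B stood at 1.63 times in KO1 (1.28 to 2.08) and 1.26 times in KO2 (0.984 to 1.63), H4 at 1.61 (1.09 to 2.40) and 0.898 times (0.577 to 1.39). H1 was at 1.83 times WT GSC in KO1 (1.21 to 2.78) and at 0.693 times in KO2 (0.410 to 1.15). Hist1h1a held 31 of the 41 H1 counts in WT GSC, 29 of 61 in KO1 and 5 of 27 in KO2. No other H1 gene had fewer counts in KO2 than in WT GSC, so the lower KO2 ratio rests on Hist1h1a. Hist1h1e had 5 counts in WT GSC and 15 in KO1, 13 of them in replicate 2. The H1 sums of the knockouts did not overlap, with 8.53 and 11.2 RPM in KO1 and 2.70 and 4.72 RPM in KO2. For H2A the interval of the KO1 ratio ran from 0.814 to 2.45.

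No member passed the threshold for both knockouts together against WT GSC, where 19.2% of the 11890 genes tested did, 8.64% higher and 10.6% lower (edgeR's quasi-likelihood test with Benjamini-Hochberg adjustment, threshold 0.05). At an unadjusted p under 0.05 there were 2 higher members and 1 lower, and DESeq2 called 0. Hist1h2bj, a core H2B gene, came closest. It had 1.09 and 0.748 RPM in WT GSC, 2.35 and 3.49 RPM in KO1 and 2.97 and 3.61 RPM in KO2. All 4 knockout libraries were above both WT libraries, with a log2 difference of 1.67 ± 0.69 (SE) and an adjusted p of 0.0747 by edgeR. By pooled counts, 42 against 7, the ratio was 3.40 (1.51 to 8.96). Hist1h2bj passed the filter through knockout libraries, where it is high, so these values are a description only.

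The leading H3 genes pointed the same way without passing the test. Hist1h3c was at 4.63 and 4.98 RPM in WT GSC, 10.6 and 9.08 RPM in KO1 and 8.37 and 6.66 RPM in KO2. Its knockout libraries did not overlap the WT libraries, at a log2 difference of 0.79 ± 0.35 and an adjusted p of 0.107 by edgeR. Hist1h3a was at 4.90 and 3.99 RPM in WT GSC, 7.36 and 8.73 RPM in KO1 and 6.21 and 4.44 RPM in KO2, so that KO2 overlapped WT. Hist1h2bc, the most counted member, differed more between the WT libraries, at 6.26 and 13.0 RPM, than KO1 at 14.4 and 15.0 RPM differed from the upper one. Hist1h4d was at 2.72 and 1.74 RPM in WT GSC, 2.94 and 6.98 RPM in KO1 and 1.89 and 3.61 RPM in KO2.

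Against WT GSC alone, KO1 had no called member (13.6% of genes tested were called, 6.24% higher and 7.4% lower; 2 members had an unadjusted p under 0.05 and DESeq2 called 0). Without WT GSC replicate 2, which held 52 of the 75 WT counts of Hist1h2bc, that gene was called higher in KO1 at a log2 difference of 1.15 and an adjusted p of 0.0381 by edgeR.

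Hist1h1a, a replication-dependent linker histone gene, was the member called in a comparison of 1 knockout with WT GSC. It had 13 and 18 counts in WT GSC, 16 and 13 in KO1 and 3 and 2 in KO2, or 3.54 and 4.49, 4.71 and 4.54, and 0.810 and 0.555 RPM. KO1 lay at the WT level and KO2 below all 4 other libraries. KO2 had this 1 member called lower against WT GSC, where 15.6% of genes were called, 7.19% higher and 8.45% lower. Hist1h1a passed the filter through the WT GSC and KO1 libraries, where it is high, so its call is a description only. The log2 difference was -2.54 ± 0.74 with an adjusted p of 0.0102 by edgeR. The call was lost with DESeq2, where the adjusted p was 0.0686, and when KO2 replicate 1, KO2 replicate 2 or WT GSC replicate 2 was left out, at 0.0599, 0.110 and 0.0587. It was also lost with all 12 libraries in the fit, at 0.0795. Over all alternatives the adjusted p ran from 0.00590 to 0.110.

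Tested directly, KO1 exceeded KO2 in Hist1h1a by 2.69 ± 0.74 on the log2 scale, at an adjusted p of 0.0532 by edgeR. No member was called in that comparison, in which 0.833% of genes were, 0.547% higher and 0.286% lower (1 member had an unadjusted p under 0.05, and DESeq2 called 0). Over all alternatives the adjusted p ran from 0.0284 to 0.493, and 4 of 12 made the call. It fell to 0.0363 or 0.0390 without WT GSC replicate 1 or 2. It rose to 0.460 with DESeq2, to 0.105 with spike-in scaling, and to 0.259 to 0.455 without any 1 of the KO1 or KO2 libraries. Pooled counts of 29 against 5 gave a ratio of 6.77 (2.59 to 22.4). The limit on Hist1h1a from the filter holds here too, so these values are a description only.

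**Figure D3:**
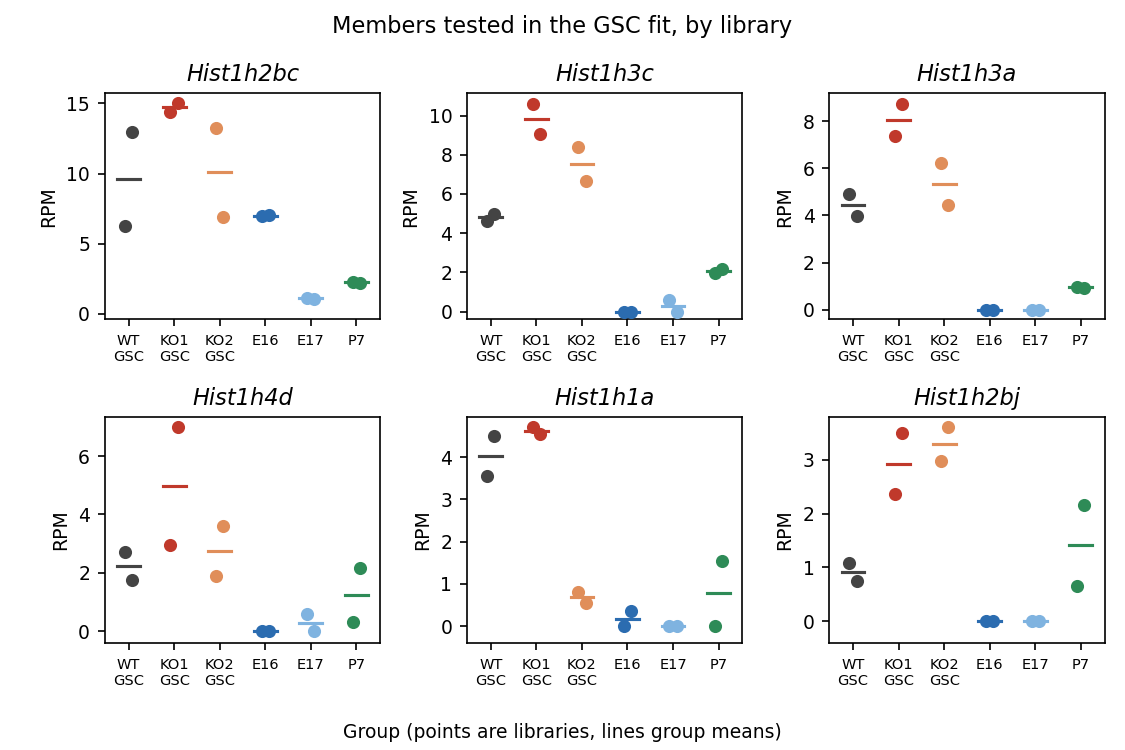
RPM in every library of the 6 members that passed the low-count filter among GSCs (points are libraries, lines are group means). Hist1h1a in KO2 lay at 0.810 and 0.555 RPM, below WT GSC and KO1, while Hist1h2bj was above WT GSC in all 4 knockout libraries.

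Genes of S phase, the period in which these histone genes are used, changed in the knockouts. Of 23 listed S phase and proliferation genes, 10 rose and none fell in the knockouts together, with a list median log2 difference of 0.28 beside 0.00 over all genes tested. In KO1 alone 7 rose, and in KO2 alone 10. With spike-in scaling 5, 2 and 8 rose in these 3 comparisons and none fell, and DESeq2 called 7, 4 and 6 higher. Of all 11890 genes tested, spike-in scaling called 569, 297 and 696 higher and 878, 849 and 495 lower. Mki67, a proliferation marker, rose by 0.69 ± 0.09 (adjusted p 7.57e-10 by edgeR), and Cdk1, the mitotic kinase, by 0.55 ± 0.09. Pcna, the sliding clamp of replication, rose by 0.29 ± 0.07. Between KO1 and KO2 none of the 23 was called by edgeR or DESeq2, and 2 were higher and 4 lower in KO1 at an unadjusted p under 0.05.

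In the machinery of histone transcription and 3′ end formation, none of 19 tested genes passed in the knockouts together by edgeR or DESeq2, with 2 higher and 1 lower at an unadjusted p under 0.05. Slbp, which binds the stem-loop, was at 305 and 359 RPM in WT GSC, 397 and 414 RPM in KO1 and 360 and 382 RPM in KO2. It rose in KO1 by 0.24 ± 0.08 (adjusted p 0.0414 by edgeR), a call lost with DESeq2 (0.163) and spike-in scaling (0.612). Its difference in KO2 was 0.11 ± 0.08 (adjusted p 0.398 by edgeR). Npat, the coactivator of clustered histone transcription, differed by 0.05 ± 0.10 in the knockouts together. Of 22 histone chaperones, 2 rose and 2 fell in the knockouts together, where 19.2% of all genes were called. Chaf1a, a subunit of the assembly factor CAF-1, rose by 0.31 ± 0.09 and Set by 0.21 ± 0.08, and Npm1 fell by 0.31 ± 0.06 and Nap1l1 by 0.20 ± 0.07. DESeq2 and spike-in scaling each kept the call for Npm1 and lost the other 3.

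Fetal germ cells were set against WT GSC to ask how cultured cells differ from cells in the testis before birth. Only 18 members had a count in the 4 fetal libraries, with 82 counts in all, against 52 members and 1113 counts in the 6 GSC libraries. Depth also differed, at 1730300 to 2840925 non-mitochondrial gene counts per fetal library and 2864246 to 4013033 per GSC library. The numbers of members counted depend on that depth. Hist1h2bc and Hist2h2be held 48 of the 82 counts, or 58.5%, against 23.9% of GSC counts. As a share of gene reads the sum was 0.233 times that of WT GSC (0.180 to 0.297), and without Hist1h2bc 0.163 times (0.116 to 0.226). By class the fetal mean was 0.381 ± 0.182 of the WT GSC mean for H2B (SD over 4 libraries), 0.276 ± 0.294 for H2A, 0.117 ± 0.102 for H1, 0.0978 ± 0.130 for H3 and 0.0881 ± 0.129 for H4. Relative to the spike-in total these means became 2.23 ± 1.23, 1.01 ± 0.843, 1.00 ± 1.62, 0.511 ± 0.358 and 1.14 ± 2.15. Only the H3 mean was below that of WT GSC, but the SDs of H2A, H1 and H4 leave their position unresolved. H1 and H4 had 2 and 3 counts in E17 replicate 1 and 0 in E17 replicate 2.

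Most leading GSC members were at or near 0 in the fetal libraries. GSC counts and ratios are pooled here over WT GSC and both knockouts. Hist1h3a had 123 counts in GSC and none in the fetal libraries, which makes GSC at least 4.10-fold higher with the floor of 3 counts per library. Hist1h3c had 154 counts in GSC and 1 in the fetal libraries, a ratio of 61.5 (10.9 to 2446). Hist1h4d had 67 and 1, and Hist1h1a 65 and 1. Hist1h2bj had 49 and none, at least 1.63-fold higher in the pooled GSC. WT GSC alone held 34 counts of Hist1h3a, 37 of Hist1h3c, 17 of Hist1h4d, 31 of Hist1h1a and 7 of Hist1h2bj. At a mean of 0.918 RPM in WT GSC, Hist1h2bj lay below the fetal floors of 1.06 to 1.73 RPM. No bound follows for that gene in WT GSC.

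Some members were still counted in the fetal libraries. Hist2h2be, an H2B gene whose transcript ends in a polyadenylation signal, had 0.545 and 0.997 RPM in WT GSC, 1.49 and 0.352 RPM at E16 and 0.578 and 2.62 RPM at E17. Over all GSC and fetal libraries its ratio was 0.999 (0.463 to 2.33), from 25 and 10 counts. Hist1h2bc was at 6.96 and 7.04 RPM at E16, within the range of WT GSC, and at 1.16 and 1.05 RPM at E17, below it. Hist1h2ae had 6 counts in E16 replicate 2, Hist1h3b 5 and Hist1h3d 4, and none of these genes had a count in the other 3 fetal libraries.

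All 6 members that passed the filter were called lower in the fetal libraries by edgeR, where 74.6% of 15839 genes were called, 42.3% higher and 32.3% lower. These members passed through the GSC libraries, where they are high, so the count says nothing of the 62 others. The log2 difference was -6.81 ± 1.11 for Hist1h3a, -5.57 ± 0.92 for Hist1h3c, -5.34 ± 1.07 for Hist1h1a, -4.47 ± 1.22 for Hist1h4d and -1.91 ± 0.45 for Hist1h2bc (adjusted p 0.000433 by edgeR). DESeq2 called 5 of the 6, without Hist1h2bj (adjusted p 0.0615). Fitted values of genes at or near 0 depend on the prior count and are no bounds. Scaling by spike-ins raised the median of all genes from 0.24 to 2.88. Hist1h3a, Hist1h3c and Hist1h1a were still called lower on that scale, while Hist1h2bc turned to 0.68, which was 2.20 below the median of all genes. The somatic and erythroid markers given above, which are higher in these libraries, moved with this contrast, as did germ cell markers, of which 7 of 10 were lower and 1 higher. Their part in it was not tested.

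The S phase list was set beside the histone genes here too. Of its 23 genes, 21 fell and 1, Pole, rose in the fetal libraries, with a list median of -1.89 against 0.24 over all genes. On the spike-in scale 15 of the 23 were called higher and 2 lower, where 14616 of 15839 genes were called higher and 162 lower. Rrm2, which makes deoxynucleotides, fell by 3.46 ± 0.23, Tyms by 3.16 ± 0.18 and Cdk1 by 3.04 ± 0.15. Slbp was at 59.1 and 64.4 RPM at E16 and 107 and 118 RPM at E17, and fell by 2.13 ± 0.10 against WT GSC. Of 19 tested processing genes 12 fell, led by Lsm10, a subunit of the U7 particle that cuts histone mRNA, at -2.53 ± 0.20, and 4 rose, led by Sympk at 2.11 ± 0.33. Of 22 chaperones 17 fell, such as Chaf1b by 3.49 ± 0.22 and Nasp, the H3-H4 and H1 chaperone, by 2.59 ± 0.09, and 3 rose, including Hat1 by 1.16 ± 0.09. Slbp, Nasp and Lsm10 turned positive when scaled by spike-ins, at 0.50, 0.07 and 0.11, below the median of all genes on that scale. There 17 processing genes were called higher and 0 lower, and 16 chaperones higher and 1 lower.

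**Figure D4:**
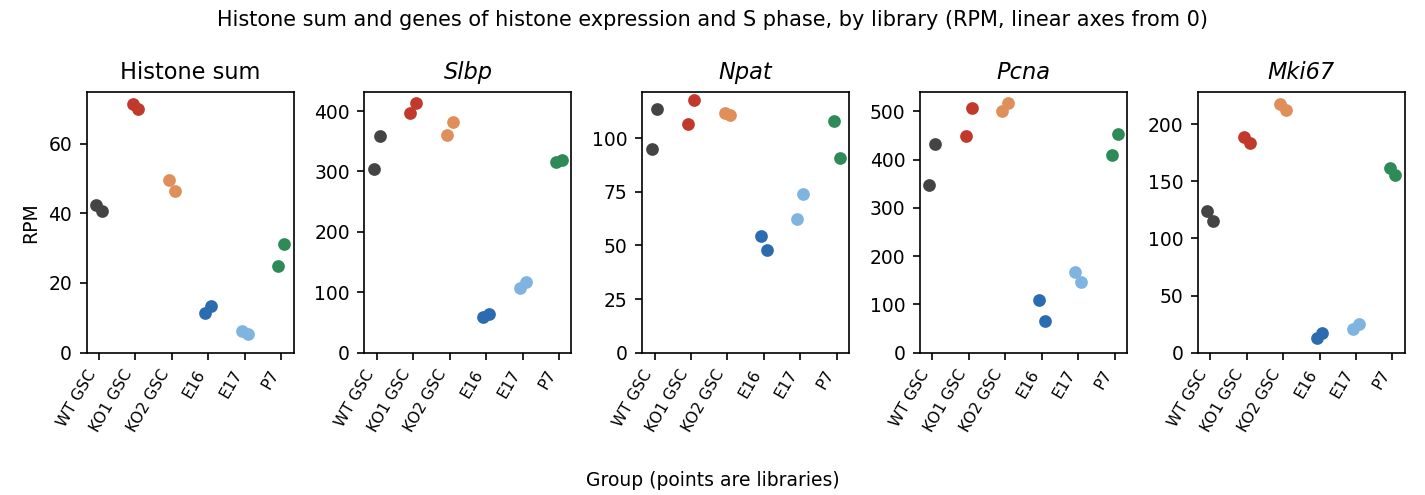
RPM per library of the histone sum and of Slbp, Npat, Pcna and Mki67, on linear axes from 0. Fetal libraries were the lowest in each panel as shares of gene reads; with spike-in scaling the fetal difference from WT GSC turned to 0.50 on the log2 scale for Slbp, 0.78 for Pcna and 1.67 for Npat.

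Between the fetal days, E17 was compared with E16 to follow the cells over the last prenatal day sampled. The summed level was 0.459 times as high at E17 (0.265 to 0.764), from 21 against 61 counts, and without Hist1h2bc 0.839 times (0.429 to 1.60). Only Hist1h2bc could be tested, and it was called lower, where 6.6% of 14776 genes were called, 1.64% higher and 4.96% lower. It had 14 and 20 counts at E16 and 2 and 2 at E17, without overlap, and a log2 difference of -2.95 ± 0.77 (adjusted p 0.0310 by edgeR). Hist1h2bc passed the filter through the E16 libraries, where it is high, so its call as lower at E17 is a description only. The call was lost without either E17 library, at 0.298 and 0.316, and without either P7 library, which shares the estimate of the spread, at 0.0579 and 0.0569. DESeq2 gave no adjusted p. Under spike-in scaling the difference was 0.01 while the median of all genes was 3.02. The processing list had 1 gene that fell, Srrt by 0.53 ± 0.14, which DESeq2 did not call, and the chaperones 3, among them Ssrp1 by 0.93 ± 0.12. In the S phase list 3 genes rose, such as Ccne2 by 1.53 ± 0.32, and 3 fell, such as Rrm1 by 0.88 ± 0.18. With spike-in scaling Srrt, Ssrp1 and Rrm1 turned positive, at 2.48, 2.08 and 2.18. All 19 processing genes, 22 chaperones and 23 S phase genes were called higher at E17 on that scale. So were 14506 of all 14776 genes tested, so these list counts are not particular to the lists.

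At P7, when spermatogonia divide, 31 members had a count and the 2 libraries held 177 counts. Against E17 the sum was 4.89 times as high (3.10 to 8.10), with every class above its E17 level by pooled counts. Marker lists moved with this contrast, with 8 of 10 germ cell genes higher and 2 lower, and 4 of 4 tested myoid, 4 of 10 Sertoli and 5 of 9 fibroblast and feeder genes lower. Their part in the result was not tested. Relative to the spike-in total, P7 lay below E17, at 0.428 against 2.03 of WT GSC. Hist1h2bc alone passed the filter in the in vivo fit and was not called, where 67.9% of genes were, 30.2% higher and 37.8% lower, at a log2 difference of 1.14 ± 0.85 (adjusted p 0.249 by edgeR; 0 members had an unadjusted p under 0.05 and DESeq2 called 0). Spike-in scaling turned it to -3.45, and the median of all genes to -4.81. Of the S phase list 19 of 23 rose and none fell, Tyms by 3.55 ± 0.27, Rrm2 by 3.10 ± 0.37 and Mki67 by 2.94 ± 0.21. Slbp rose by 1.65 ± 0.14 to 316 and 319 RPM, and Npat by 0.70 ± 0.18. Of the processing genes 11 rose and 3 fell, and of the chaperones 19 rose and 3 fell, the falls including Hat1 at -1.23 ± 0.11. With spike-in scaling all 23 S phase genes, 19 processing genes and 22 chaperones were called lower at P7. So were 14486 of all 14776 genes tested.

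Against WT GSC, the P7 sum was 0.679 times as high (0.562 to 0.819), and the composition differed. H3 stood at 0.335 times WT GSC (0.202 to 0.537) and H2B at 0.494 times (0.346 to 0.696). Without Hist1h2bc the H2B ratio was 0.946 (0.587 to 1.51) and the ratio of the whole sum 0.818 (0.667 to 1.002). H4 at 1.20 times (0.785 to 1.83), H2A at 1.32 times (0.752 to 2.31) and H1 at 0.896 times (0.540 to 1.47) had intervals that include equality. With the spike-in total as denominator the H4 and H2A means were below WT GSC, at 0.761 and 0.810 times. Of 9 members tested, 2 were called higher and 3 lower, where 31% of 15827 genes were called, 16% higher and 15% lower. Hist1h2ah, Hist1h1c and Hist1h4i passed the filter through the P7 libraries, where they are high. The 3 lower members were low at P7 and passed it through GSC libraries, where they are high. The counts of higher and of lower members are therefore a description only.

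The higher members were Hist1h2ah and Hist1h1c. Hist1h2ah, an H2A gene, had 10 and 11 counts at P7 and none in any of the 10 other libraries, which makes P7 at least 4.29-fold higher than WT GSC with the floor of 3 counts per library. Its annotated transcript has 405 bases and no stem-loop match, and sequence past its end was not searched. The P7 gene list differs, so for Hist1h2ah gene model and stage cannot be told apart. Hist1h1c, a somatic linker histone gene with a polyadenylation signal, had 13 and 11 counts at P7 and 0 and 1 in WT GSC, a ratio of 29.4 (4.79 to 1209), and was called at an adjusted p of 0.00893 by edgeR. It had 8 counts in KO2 replicate 2 and at most 2 in any other GSC or fetal library. Its call was lost without WT GSC replicate 1, at 0.0923, and without P7 replicate 1, at 0.0523. Hist1h4i, also with a signal, had 10 and 15 counts at P7 and 3 and 3 in WT GSC, a ratio of 5.10 (2.04 to 15.2), with an adjusted p of 0.0702 by edgeR.

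The lower members were 3 leading genes of GSC. Hist1h2bc was at 2.30 and 2.16 RPM at P7, below both WT libraries, at a log2 difference of -2.22 ± 0.51 (adjusted p 0.000753 by edgeR). Hist1h3a was at 0.987 and 0.927 RPM, at -2.29 ± 0.72 (0.0138). Hist1h1a had 0 and 5 counts, at -2.41 ± 0.89 (0.0351). DESeq2 called 1 of the 9 members, Hist1h2bc, and gave no adjusted p for 5. Leaving out single libraries left 2 to 6 members called, with 2 without WT GSC replicate 1, 3 without WT GSC replicate 2 and 2 without P7 replicate 1. The median of all genes was 0.03, and -0.42 under spike-in scaling, which changed no direction among the 5 called. Hist1h2bc lost its call without WT GSC replicate 2, at 0.0539. Hist1h3a lost it without WT GSC replicate 1, P7 replicate 1 or P7 replicate 2, at 0.0746, 0.0729 and 0.0763. Hist1h1a lost it without either WT GSC library, either E17 library or P7 replicate 1, at 0.0582 to 0.293. Of the S phase list 1 gene rose and 9 fell, such as Tk1, the thymidine kinase, by 1.15 ± 0.18 and Top2a by 1.02 ± 0.10. Of the processing genes 2 rose and 4 fell, and of the chaperones 4 rose and 7 fell. On the spike-in scale none of these lists had a gene called higher, and 14, 9 and 14 genes were called lower. Of all 15827 genes tested, 909 were called higher and 4709 lower on that scale.

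Counts were also sorted by how the annotated transcript ends. Members without a complete stem-loop in the annotated transcript held 39.3% of member counts in GSC, 64.6% in fetal libraries and 37.3% at P7. They include genes annotated only to the stop codon, for which a stem-loop further on was not searched. Members whose transcript ends within 100 bases of the stem-loop held 39.2%, 9.76% and 21.5%, and those whose transcript runs further 21.6%, 25.6% and 39.5%. Members with a polyadenylation signal in the last 50 bases held 12.6% of counts in GSC, 26.8% in fetal libraries and 35.0% at P7. The short-ended group, with Hist1h3a, Hist1h3c and Hist1h2bj, had 436 counts in GSC and 8 in fetal libraries. A few genes set these shares, since Hist1h2bc alone made 38 of the 53 fetal counts without a stem-loop, and annotated ends were not measured here. The ends are those of GENCODE transcripts, which may differ from the gene models used in counting. For Hist1h1c the RefSeq gene ran from 23738807 to 23739531, shorter than its GENCODE transcript of 1560 bases. P7 was tabulated with another gene list, so in its shares stage and annotation cannot be told apart.

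**Figure D5:**
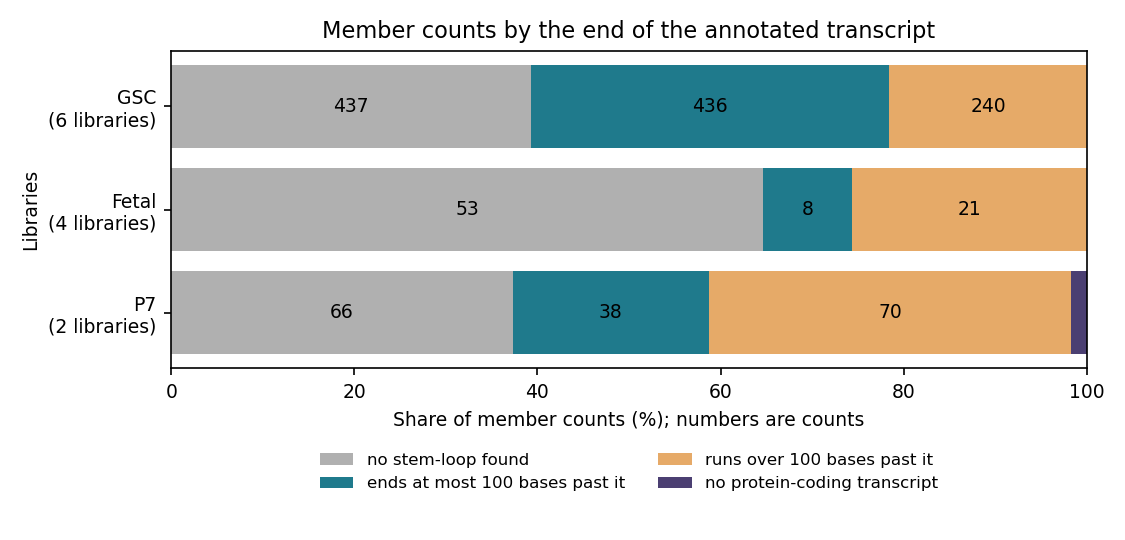
Share of member counts (%) in GSC, fetal and P7 libraries by the end of the annotated transcript relative to the stem-loop, with the counts written in the bars. Transcripts ending at most 100 bases past the stem-loop held 39.2% of GSC counts and 9.76% of fetal counts. P7 was tabulated with another gene list.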

How the data were processed

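SC3-seq libraries were made from 1 ng of total RNA, per the labels' protocols. The authors deposited 1 table per library with whole-number counts per gene and RPM values. The submitters' processing notes name cutadapt 1.18, TopHat2 2.1.1, HTSeq 0.9.1, Salmon 1.4.0 and GRCm38.p6. Counts were used as deposited, and RPM was recomputed over non-mitochondrial gene reads. Genes were joined by Entrez ID, and P7 was compared over shared genes. Tests used edgeR 4.0.16 (quasi-likelihood, TMM scaling, low-count filter by group, Benjamini-Hochberg over all genes tested, threshold 0.05) with DESeq2 1.42.0 as an alternative, and were tested on simulated data. GSC groups were fitted together, in vivo groups together, fetal against WT GSC over 10 libraries and P7 against WT GSC over 12. Ratios of pooled counts have exact binomial 95% intervals from scipy 1.17.1. SE is the log2 difference divided by the square root of F. Members and lists were chosen with earlier results of these data known.

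Named genes were the 3 testis types, the 3 leading members per class, up to 5 called members per direction and comparison with at least 2 RPM, up to 3 called genes per list, direction and comparison with at least 20 RPM, and Slbp, Npat, Stag3, Pcna and Mki67; other genes were named after their values were seen. Where a WT GSC table's name and title gave opposite replicate numbers, titles were used. One gene that this rule names is not reported here.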

Additional observations from a re-analysis of the deposited data

Results flagged for a closer look

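Stag3 differed between the knockouts themselves, which called for a closer look. Its level was 299 ± 6.995 RPM in KO1 and 145 ± 10.5 RPM in KO2 (SD, n = 2), a log2 difference of 1.05 ± 0.09 (adjusted p 3.26e-16 by edgeR). No clustered histone gene differed between them past the threshold by the same test.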

How the results depend on the processing

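The counts of members called moved with the tool, the filter, the scaling and the libraries in the fit, and the cause was not tested. KO2 against WT GSC went from 1 to 0 with DESeq2 or all 12 libraries. KO1 against KO2 went from 0 to 1 of 52 tested members with no filter, and E17 against E16 from 1 to 0 with spike-in scaling. P7 against E17 went from 0 to 1 of 1 tested member with spike-in scaling, where 14523 of 14776 genes were called. It went to 3 of 37 members with no filter, where 11296 of 25175 genes were called. With all 12 libraries it went to 6 of 9, where 11020 of 15827 genes were called. The fetal contrast went from 6 to 3 with spike-in scaling, and P7 against WT GSC from 5 to 1 with DESeq2, which gave no adjusted p for 5 of its 9 members. Leaving out 1 library gave 0 to 1 for each knockout against WT GSC, for KO1 against KO2 and for E17 against E16, 0 for the knockouts together and for P7 against E17, 6 for the fetal contrast, and 2 to 6 for P7 against WT GSC, with the lone library of a group assumed to vary like the others. Spike-in scaling turned these log2 differences: for E17 against E16, Rrm1 2.18, Ssrp1 2.08, Srrt 2.48 and Hist1h2bc 0.012; for P7 against E17, Mki67 -1.74, Rrm2 -1.53, Slbp -3.03, Tyms -1.11, Hist1h2bc -3.45 and Npat -3.99; for fetal against WT GSC, Pcna 0.78, Slbp 0.50, Nasp 0.070, Hist1h2bc 0.68, Lsm10 0.11 and Npat 1.67; for P7 against WT GSC, Hist1h2bj -0.0069. Leaving out 1 library gave ranges across 0 for differences that were not called: in the knockouts together, Hist1h2bc -0.12 to 0.88 and Npat -0.057 to 0.15; in KO2 against WT GSC, Hist1h2bc -0.53 to 0.61, Hist1h4d -0.27 to 0.64 and Hist1h3a -0.049 to 0.44; in KO1 against KO2, Hist1h2bj -0.47 to 0.081; in P7 against WT GSC, Hist1h2bj -0.60 to 1.06. With the spike-in total as denominator, sums relative to WT GSC became 1.53 in KO1, 0.667 at E16, 2.03 at E17 and 0.428 at P7. By class they became 1.00 (H1), 1.01 (H2A), 2.23 (H2B), 0.511 (H3) and 1.14 (H4) in fetal libraries, and 0.564, 0.810, 0.314, 0.208 and 0.761 at P7. The fetal SDs were 1.62 for H1, 0.843 for H2A and 2.15 for H4, so these 3 fetal means are unresolved against WT GSC. Without Hist1h2bc, an alternative chosen after seeing the data, the sums became 1.75 in KO1, 0.169 at E16 and 0.810 at P7, and the H2B sums 1.74 in the knockouts together and 0.935 at P7. Leaving out the 5 members that overlap other genes moved none of these sums by more than the spread between replicates. Same-numbered replicates did not deviate together over the genes tested (correlations -0.0139 to 0.0586 within GSC and -0.0009 to 0.0421 in vivo). Counting error can hide a shared culture, animal or batch, so pairing is not excluded. The replicate block moved KO1 against KO2 from 0 to 1 member, Hist1h1a at an adjusted p of 0.0354 by edgeR, and no other member count. Depth limits single members, of which 6 could be tested among GSCs and 1 in vivo.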
